A study of Mus musculus with 6 samples.

Results

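The sites of accessible chromatin described here lie around 3 genes of gluconeogenesis in mouse liver, Pck1, G6pc and Fbp1. They were found by merging the DNase I hotspots of all 6 libraries wherever hotspots overlapped by at least 1 bp, and by keeping the merged regions that touched a fixed window on each gene's chromosome (build mm9). The windows were 100 kb long at Pck1 (chromosome 2), 90 kb at G6pc (chromosome 11) and 110 kb at Fbp1 (chromosome 13). They held 46 of 75169 merged regions, 15 at Pck1, 13 at G6pc and 18 at Fbp1. By RefSeq gene order (build GRCm38.p6), the adjacent protein-coding genes are Ctcfl and Zbp1 at Pck1, Aoc3 and Aarsd1 at G6pc, and Fbp2 and Aopep at Fbp1. A site is named after its window, and which gene it belongs to was not determined. All mice were C57BL/6, an inbred strain. The fasted group held 3 livers from mice without food for 24 h, and the fed group 3 livers from mice eating ad libitum, all taken at the hour the lights came on. Age and sex are not given in the labels, and the labels do not say that each library came from a separate animal, so the p-values measure the spread between these libraries, which may be partly technical.

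Gluconeogenesis is the making of new glucose from lactate, amino acids and glycerol, by which the liver feeds the blood during a fast. Pck1 encodes the cytosolic phosphoenolpyruvate carboxykinase, which turns oxaloacetate into phosphoenolpyruvate early in the pathway. Fbp1 encodes fructose-1,6-bisphosphatase, which acts in the middle of it, and G6pc encodes the catalytic subunit of glucose-6-phosphatase, which frees glucose at the end. Glucagon through cyclic AMP, glucocorticoids and FOXO factors are known to raise transcription of Pck1 and G6pc, and insulin to lower it. DNase I cuts DNA where nucleosomes leave it open, so a cluster of cuts, or hotspot, marks a promoter, an enhancer or another accessible stretch.

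The promoters of the 3 genes are shown because the hormones above are known to act on promoters of this pathway. They come from RefSeq (build GRCm38.p6, with strand + for Pck1 and G6pc and strand - for Fbp1), each is 300 bases long and spans the annotated start, and the table matched 3 of 3 genes. Capitals mark matches on either strand to any of 5 patterns, none of which overlapped another in these promoters. The first is TNACGTCA, the cyclic AMP response element, by which CREB factors bind. The FOXO factors are known to bind TGTTTAC. The insulin response element has TGTTTTG at its core. A half-site of the glucocorticoid receptor reads TGTTCT, and the TATA box reads TATAAA.
Pck1: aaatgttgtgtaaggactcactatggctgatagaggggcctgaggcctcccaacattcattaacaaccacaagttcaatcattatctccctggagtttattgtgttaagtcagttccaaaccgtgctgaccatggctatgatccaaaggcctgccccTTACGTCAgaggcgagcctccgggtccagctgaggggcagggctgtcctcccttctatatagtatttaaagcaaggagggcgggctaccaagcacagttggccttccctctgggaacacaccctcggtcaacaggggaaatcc
G6pc: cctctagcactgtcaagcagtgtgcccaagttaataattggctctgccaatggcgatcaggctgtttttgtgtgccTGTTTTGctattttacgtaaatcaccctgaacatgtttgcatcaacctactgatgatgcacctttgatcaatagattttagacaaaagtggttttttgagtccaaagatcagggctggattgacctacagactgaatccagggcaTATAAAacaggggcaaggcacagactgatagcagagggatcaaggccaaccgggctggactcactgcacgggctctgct
Fbp1: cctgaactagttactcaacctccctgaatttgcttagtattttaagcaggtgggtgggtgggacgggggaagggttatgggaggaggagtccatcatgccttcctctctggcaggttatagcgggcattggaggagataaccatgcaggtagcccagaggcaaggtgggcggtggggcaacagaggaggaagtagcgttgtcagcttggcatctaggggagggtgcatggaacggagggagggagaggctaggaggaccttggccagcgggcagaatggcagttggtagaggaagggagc
The Pck1 promoter held TTACGTCA at positions 158 to 165, the cyclic AMP response element letters, which 2.93% of the 32851 RefSeq promoters of this length hold. The G6pc promoter held TGTTTTG at positions 77 to 83 and TATAAA at positions 222 to 227, letters held by 6.28% and 13.6% of promoters. The Fbp1 promoter held none of the 5 patterns. TGTTTAC and TGTTCT, found in 3.65% and 19% of promoters, were in none of the 3 windows of letters. A match is a description of letters and not a bound site. The hotspots are placed on mm9 and the promoters on another build, so which hotspot covers which promoter was not determined.

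Of the 46 regions, 25 were called in all 6 libraries and could be tested, 9 at Pck1, 8 at G6pc and 8 at Fbp1. Within each locus they are numbered here in order of position. The value of a site in a library is its maximum tag density, a height on a scale that the sources used here do not state. Fold changes are fasted minus fed on the scale of log2(density + 1), with the median of each library over the 37044 regions called in all 6 libraries set to 0. Depth was uneven: the deepest libraries, fasted replicate 2 and fed replicate 3, had relative depths of 1.90 and 1.64, on a scale where fed replicate 2, the shallowest, is 1. If a step of the density scale is 1 tag, the weakest tested site was 19 tags high in its lowest library and the strongest was 791 tags high in its highest.

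Chromatin at the 3 loci was open in both groups, and among the tested sites most of what passed was a gain in fasted livers. Of the 25 tested sites 6 (24.0%) were higher in fasted livers, against a background of 7.89% of all tested regions, and 1 (4.0%) was lower, against 7.84% (limma across all 37044 regions, Benjamini-Hochberg adjusted p under 0.05). Each locus had 2 of the 6 that rose, and the site that fell lies at Fbp1. The remaining 18 did not pass. Over all tested regions 2921 were higher and 2905 lower in fasted livers; without centring these were 1946 and 3189, and 6 and 1 at the 3 loci. The median log2 fold change was 0.28 over the 25 sites and 0.04 over all tested regions. It was 0.49 at Pck1, 0.21 at G6pc and 0.15 at Fbp1. All 9 Pck1 sites had a log2 fold change above 0, as did 7 of 8 at G6pc and 5 of 8 at Fbp1 (21 of 25 in all), against 54.2% of all tested regions. Without centring 20 of the 25 were above 0, on a scale where the median of all tested regions was -0.037. These counts cover the 25 sites called in every library and leave out the 21 sites that at least 1 library lacked. Among those left out, 2 at G6pc were called in every fed and no fasted library, a pattern of 1.57% of all merged regions. Liver is a mixture of cell types, so a site open in more cells and a site more open per cell cannot be told apart.

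**Figure D1:**
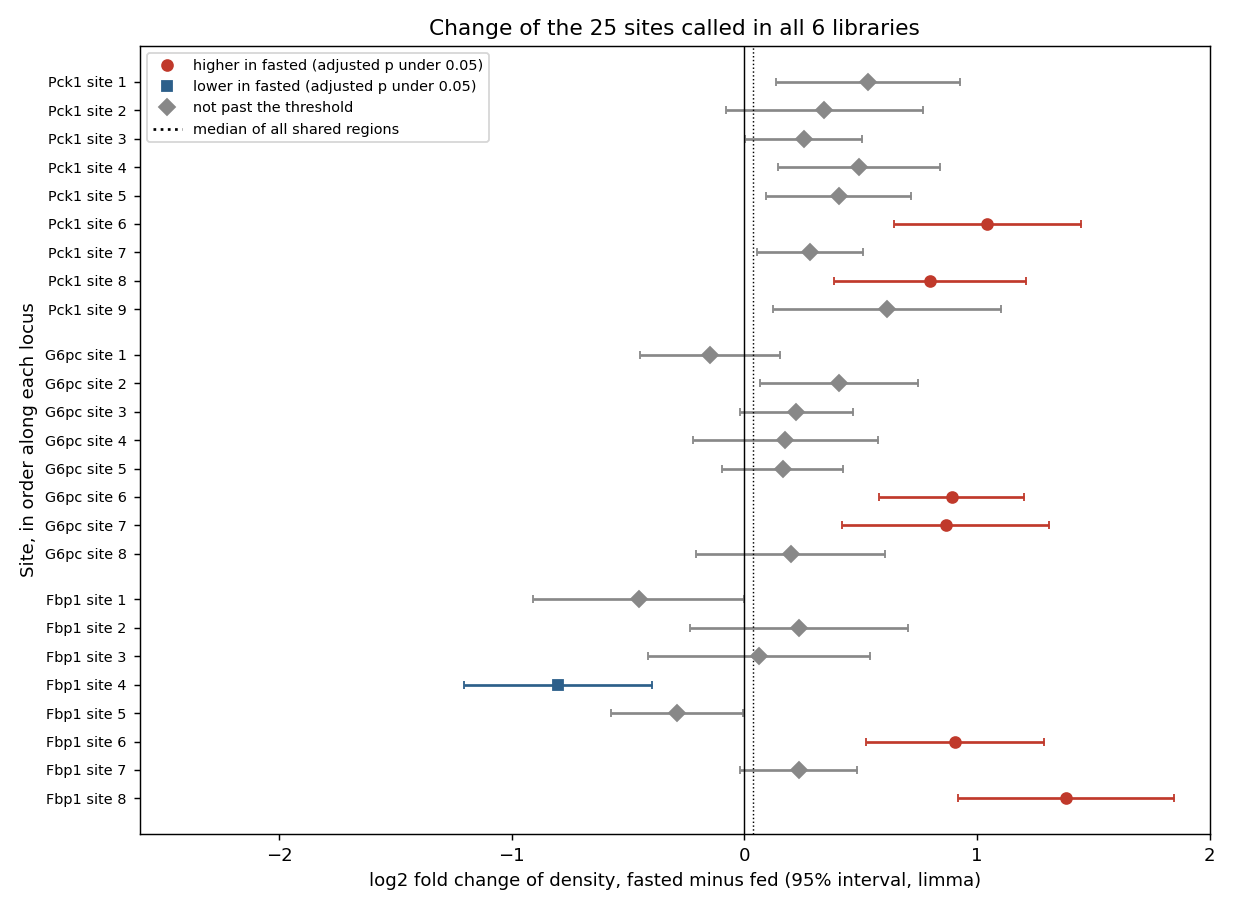
Log2 fold change of density, fasted minus fed, with its 95% interval from limma (x axis) for the 25 tested sites in order along each locus (y axis). Red circles are the 6 sites higher in fasted livers, the blue square the 1 site lower, grey diamonds the 18 that did not pass, and the dotted line is the median of all tested regions, 0.04.

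The Pck1 locus held the widest of all tested regions, and the highest density of that region did not show the change in its right part. Pck1 site 7 (chr2:172977637-172986650, 9014 bp) was the strongest site of the locus, with densities of 185, 156 and 197 in fasted and 161, 151 and 151 in fed libraries. In densities as deposited, fasted replicates 1 and 3 stood above every fed library and fasted replicate 2 lay inside the fed range; after centring all 3 fasted libraries were above the fed ones. The change in the highest density did not pass (log2 fold change 0.28, SE 0.11, adjusted p = 0.0864, limma). The width came from fasted replicate 2 alone, where 1 hotspot spanned all 9014 bp. With the average in place of the highest density the sign turned (log2 fold change -0.15, adjusted p = 0.454, limma, and 0.0513 to 0.454 over its alternatives). The 0.0513 belongs to the left part alone, in the fit without fasted replicate 2, where the region is no longer 1 site. The averages of the strongest hotspot were 50.8, 37.6 and 56.1 in fasted and 61.3, 53.1 and 53.3 in fed libraries, and the cause was not tested. In the other 5 libraries the region fell into a left and a right part with a gap of 1290 bp between them, in which fasted replicate 3 alone had weak hotspots (densities 10.9 and 15.1).

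The right part of Pck1 site 7 (chr2:172983448-172986645) was high in fasted livers and far lower in fed livers. Its density was 143 in fasted replicate 1 and 146 in fasted replicate 3, against 37.1, 44.2 and 55.6 in fed replicates 1 to 3. Both fasted values were above every fed value. Without fasted replicate 2, whose single hotspot gives no value for the right part, its log2 fold change was 1.67 with SE 0.17 (limma, 95% interval 1.31 to 2.03, adjusted p = 5.25e-07, 2 fasted and 3 fed libraries). This is above the fold change of 99.8% of the 37543 regions tested in that fit. The split was made after the values had been seen.

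The left part (chr2:172977695-172982157) held the highest densities of the locus and changed less. It reached 185 in fasted replicate 1 and 197 in fasted replicate 3, against 161, 151 and 151 in fed replicates 1 to 3, a log2 fold change of 0.32 with SE 0.11 (limma, adjusted p = 0.0513, without fasted replicate 2). The ratio of right to left density compares both parts inside a library and does not depend on how libraries were scaled. It was 0.772 and 0.740 in fasted replicates 1 and 3, and 0.231, 0.293 and 0.369 in fed replicates 1 to 3. The groups did not overlap in this ratio, but the parts were set apart after their values were seen, so it is not separate evidence of the change. In fasted replicates 1 and 3 the left part was 1 hotspot, of 4402 and 4423 bp. Its strongest hotspot was 1326, 1969 and 2141 bp wide in fed replicates 1 to 3. Each fed library also called weaker hotspots in the left part, with densities of 10.7 to 17.2. The last of these ended at positions 172981874, 172982041 and 172982139 in fed replicates 1 to 3. The fasted hotspots ended at 172982096 and 172982157. The width of the strongest hotspot thus does not show a longer open stretch in fasted livers. In the RefSeq table (GRCm38.p6) the Pck1 gene is 6202 bp long, so a stretch of 9014 bp is longer than the gene; where the gene begins in it was not determined.

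**Figure D2:**
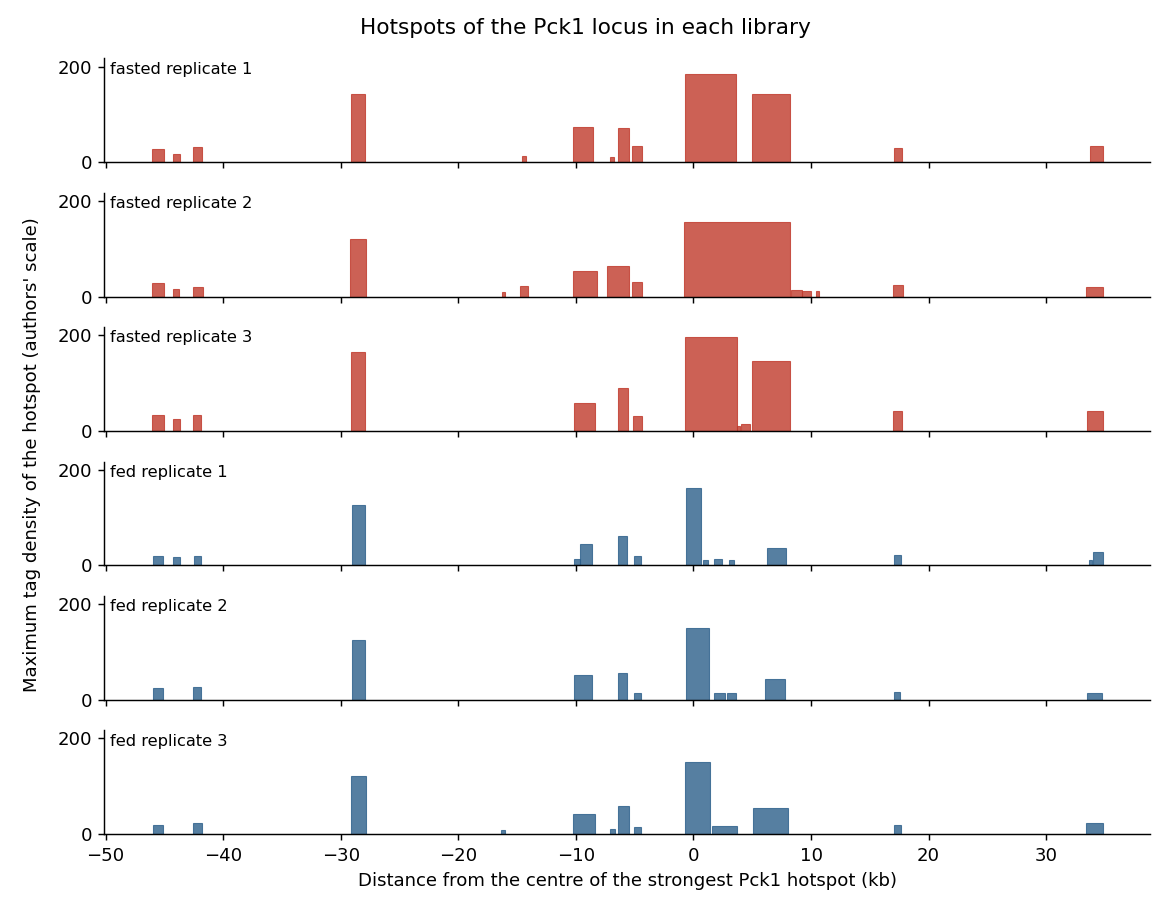
Hotspots of the Pck1 locus in each library: position as distance in kb from the centre of the strongest hotspot (x axis), maximum tag density as bar height (y axis) and hotspot width as bar width. Fasted libraries are red and fed libraries blue; the right part near 5 to 8 kb stands at 143 and 146 in fasted replicates 1 and 3 and at 37.1 to 55.6 in the fed libraries, and 1 wide bar covers both parts in fasted replicate 2.

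Pck1 sites 6 and 8, on either side of the widest region, rose in fasted livers. Site 6 (chr2:172973187-172974063) had densities of 34.9, 31.2 and 32.4 in fasted and 19.1, 15.0 and 14.9 in fed libraries. All 3 fasted libraries were above all 3 fed ones, with means of 32.8 ± 1.90 and 16.3 ± 2.42 (SD, n = 3 each) and a log2 fold change of 1.04 with SE 0.19 (limma, adjusted p = 0.00065). Site 8 (chr2:172995425-172996297), 8.77 kb beyond the widest region, had densities of 30.9, 25.5 and 41.8 in fasted and 21.3, 16.5 and 19.5 in fed libraries. The groups did not overlap, the means were 32.7 ± 8.31 and 19.1 ± 2.44 (SD, n = 3 each), and the log2 fold change was 0.80 with SE 0.20 (limma, adjusted p = 0.0080). Without fasted replicate 3, the highest library, site 8 had an adjusted p of 0.0518, within a range of 0.00408 to 0.0518 over its alternatives.

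The other Pck1 sites shared the sign of these changes but did not pass. Site 3 (chr2:172949253-172950628), a strong site farther to the left, had densities of 143, 120 and 166 in fasted and 127, 126 and 121 in fed libraries, and fasted replicate 2 was the lowest of the 6 as deposited, while after centring the groups did not overlap. Its log2 fold change was 0.25 (adjusted p = 0.175, limma). Site 4 (chr2:172968174-172970234) had 73.8, 53.5 and 59.3 in fasted and 44.1, 51.3 and 42.6 in fed libraries, with a log2 fold change of 0.49 (adjusted p = 0.0511, limma). Site 5 next to it (chr2:172971080-172972948) had 71.5, 64.3 and 89.3 in fasted and 61.0, 55.8 and 59.7 in fed libraries. Its groups did not overlap, and its log2 fold change was 0.40 (adjusted p = 0.0726, limma). Sites 1, 2 and 9 had log2 fold changes of 0.53, 0.34 and 0.61, with adjusted p-values of 0.0622, 0.294 and 0.0862 (limma).

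The number of sites that passed moved most on leaving out fasted replicate 2. Without it 11 of 26 sites were higher in fasted livers, 6 at Pck1, 3 at G6pc and 2 at Fbp1, against a background of 8.62%. In the same fit 1 was lower, where 2773 of all 37543 tested regions were lower. The sites that passed in this fit and not with all libraries were Pck1 site 4 (log2 fold change 0.53, adjusted p = 0.0404), site 5 (0.45, adjusted p = 0.0494), the right part of site 7 and site 9 (0.82, adjusted p = 0.0164), and G6pc site 2 (0.58, adjusted p = 0.00853; limma for all). In densities as deposited, fasted replicate 2 was the lowest of the fasted group at 4 of these 5, and it had no value for the right part. The fit used centred values, on which this order can differ.

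At the G6pc locus 2 sites to the right of the strongest ones rose in fasted livers. G6pc site 6 (chr11:101236701-101241606) had densities of 142, 121 and 155 in fasted and 78.7, 97.4 and 62.3 in fed libraries. The lowest fasted library was above the highest fed one, with means of 139 ± 17.3 and 79.5 ± 17.6 (SD, n = 3 each). On the log2 scale the change was 0.89 with SE 0.15 (limma, adjusted p = 0.000258). Site 7 (chr11:101252217-101253508), 10.6 kb beyond it, was weaker, with 28.7, 23.1 and 38.1 in fasted and 20.6, 17.6 and 12.4 in fed libraries. Its groups did not overlap, and its log2 fold change was 0.87 with SE 0.21 (limma, adjusted p = 0.0076). Without fed replicate 3, the lowest library, site 7 had an adjusted p of 0.060, within a range of 0.00106 to 0.060 over its alternatives.

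The 2 strongest G6pc sites did not pass. Site 3 (chr11:101221936-101225228), the strongest of the locus, had densities of 162, 130 and 165 in fasted and 139, 140 and 131 in fed libraries. Its log2 fold change was 0.22 (95% interval -0.02 to 0.46, adjusted p = 0.225, limma). Site 5 (chr11:101228415-101229588) had 137, 124 and 173 in fasted and 150, 136 and 118 in fed libraries, so the groups overlapped, and its log2 fold change was 0.16 (95% interval -0.09 to 0.42, adjusted p = 0.431, limma). Inside each library, the density of site 6 over that of site 3 was 0.876, 0.927 and 0.941 in fasted and 0.568, 0.695 and 0.475 in fed libraries. The 2 groups did not overlap in this ratio, which does not depend on how libraries were scaled. The pair was chosen by whether each site passed in the same fit, so the ratio is not separate evidence of the rise. Site 1 (chr11:101212142-101213797) had the only negative log2 fold change of the locus, -0.15, with 96.7, 72.6 and 108 in fasted and 120, 114 and 88.3 in fed libraries (adjusted p = 0.562, limma). Site 2 (chr11:101216884-101217888) had 96.7, 62.8 and 109 in fasted and 66.9, 77.6 and 63.2 in fed libraries, and the groups overlapped: fasted replicate 2 was the lowest of the 6 as deposited, and after centring it was below fed replicate 2 only. Sites 4 and 8 had log2 fold changes of 0.18 and 0.20, with adjusted p-values of 0.611 and 0.564 (limma).

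**Figure D3:**
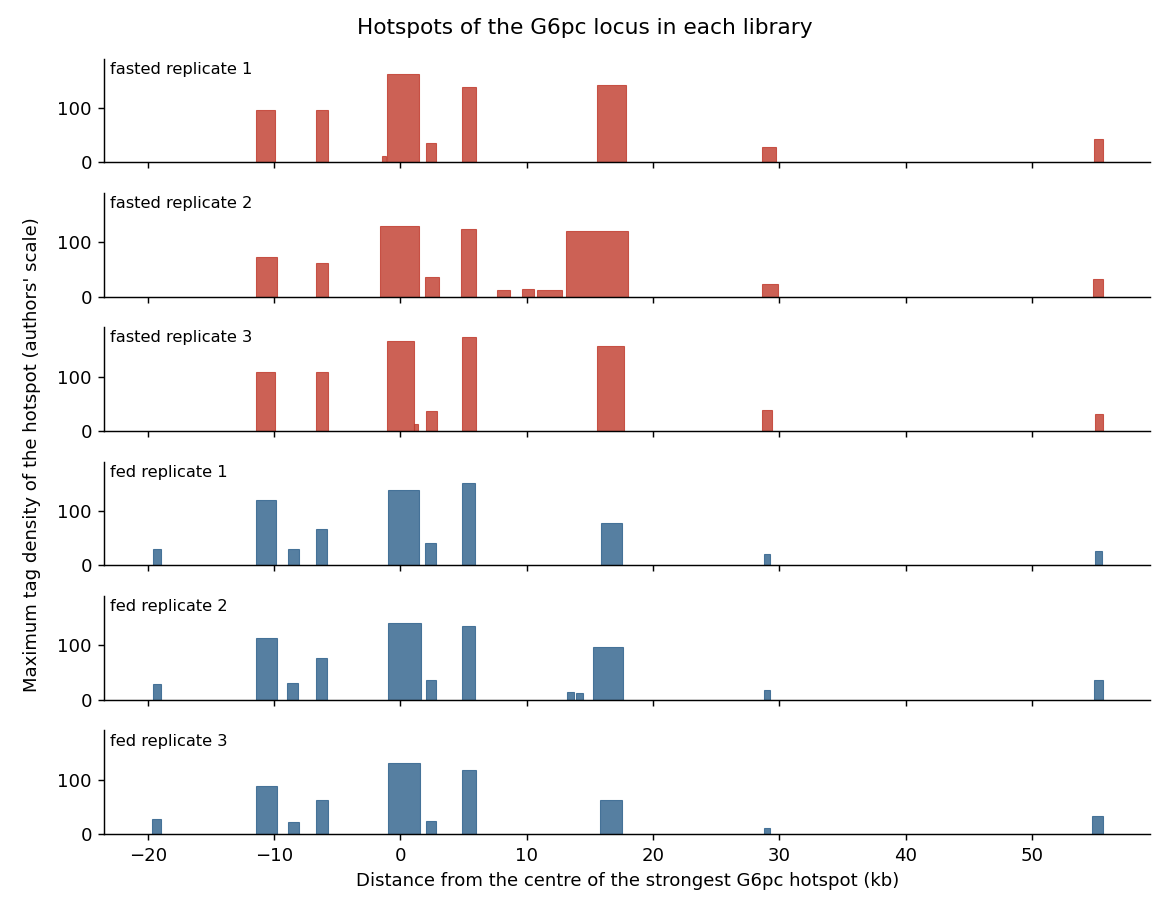
Hotspots of the G6pc locus in each library, drawn as distance in kb from the centre of the strongest hotspot (x axis) and maximum tag density (y axis), fasted in red and fed in blue. Site 6, right of the strongest sites, stands at 121 to 155 in fasted and 62.3 to 97.4 in fed libraries; both sites called in fed libraries only, at densities of 22.7 to 30.9, have no bar in any fasted library.

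On the left of the G6pc locus 2 sites were called in every fed library and in no fasted library. They lie 9.99 kb apart, one on each side of site 1. The first (chr11:101203918-101204626) had densities of 30.9, 29.6 and 27.9 in fed libraries, and the second (chr11:101214619-101215525) had 30.5, 30.4 and 22.7. No fasted library called either. The lowest hotspots of the fasted lists in the same window had densities of 11.9, 12.6 and 13.9 in fasted replicates 1 to 3. Those of fasted replicates 1 and 3 bordered the strongest hotspot of site 3 and were merged into it. Apart from them, the lowest densities there were 28.7 in fasted replicate 1 and 32.1 in fasted replicate 3. Whether a separate site of the height of these 2 would be called in those libraries was not tested. A missing call is an unknown density and not 0, so no fold change is given. These 2 of the 46 regions (1.57% of all 75169 merged regions had this pattern) were the only ones of their kind, and none was called in all 3 fasted and no fed library (1.17% of all).

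The Fbp1 locus held changes in opposite directions at 2 sites 5.53 kb apart. Fbp1 site 4 (chr13:62982484-62983386) fell to densities of 17.6, 17 and 20.9 in fasted livers, against 30.2, 40.1 and 34.1 in fed livers. Every fasted library was below every fed one, with means of 18.5 ± 2.11 and 34.8 ± 5.0 (SD, n = 3 each) and a log2 fold change of -0.80 with SE 0.19 (limma, adjusted p = 0.00668). Site 6 (chr13:62988916-62990980), on the right of it, rose in fasted livers. Its densities were 111, 74.4 and 126 in fasted and 53.0, 75.3 and 44.9 in fed libraries, and its log2 fold change was 0.91 with SE 0.18 (limma, adjusted p = 0.00152). As deposited the groups overlapped, fasted replicate 2 lying just below fed replicate 2, and after centring they did not.

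Between them lies Fbp1 site 5 (chr13:62984206-62986073), a strong site that did not pass. It had densities of 99.3, 73.8 and 108 in fasted and 125, 126 and 107 in fed libraries, and its log2 fold change was -0.29 (adjusted p = 0.173, limma). Fasted replicate 3 was just above fed replicate 3 in density as deposited. The strongest site of the locus, site 7 (chr13:63008798-63010305), had 178, 136 and 194 in fasted and 165, 155 and 131 in fed libraries. The groups overlapped, and its log2 fold change was 0.23 (adjusted p = 0.221, limma). Site 6 over site 7 inside each library was 0.622, 0.546 and 0.648 in fasted and 0.321, 0.484 and 0.342 in fed libraries, without overlap. This pair too was chosen by the calls of the same fit, so the ratio is not separate evidence.

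The greatest rise among the tested sites was at the right end of the Fbp1 locus. Site 8 (chr13:63028513-63029436), 18.2 kb to the right of the strongest site, had densities of 26.1, 35.3 and 23.9 in fasted and 12.5, 10.5 and 9.38 in fed libraries. All fasted libraries were above all fed ones, with means of 28.4 ± 6.06 and 10.8 ± 1.58 (SD, n = 3 each). On the log2 scale the change was 1.38 with SE 0.22 (limma, adjusted p = 0.00017), above that of 99.5% of tested regions. Unlike at most sites that rose, fasted replicate 2 was the highest library here. Site 1 at the left end (chr13:62957430-62958198) had 9.93, 14.0 and 13.9 in fasted and 19.5, 16.1 and 19.9 in fed libraries, a log2 fold change of -0.46 (adjusted p = 0.177, limma). Sites 2 and 3 had log2 fold changes of 0.23 and 0.06, with adjusted p-values of 0.552 and 0.898 (limma).

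**Figure D4:**
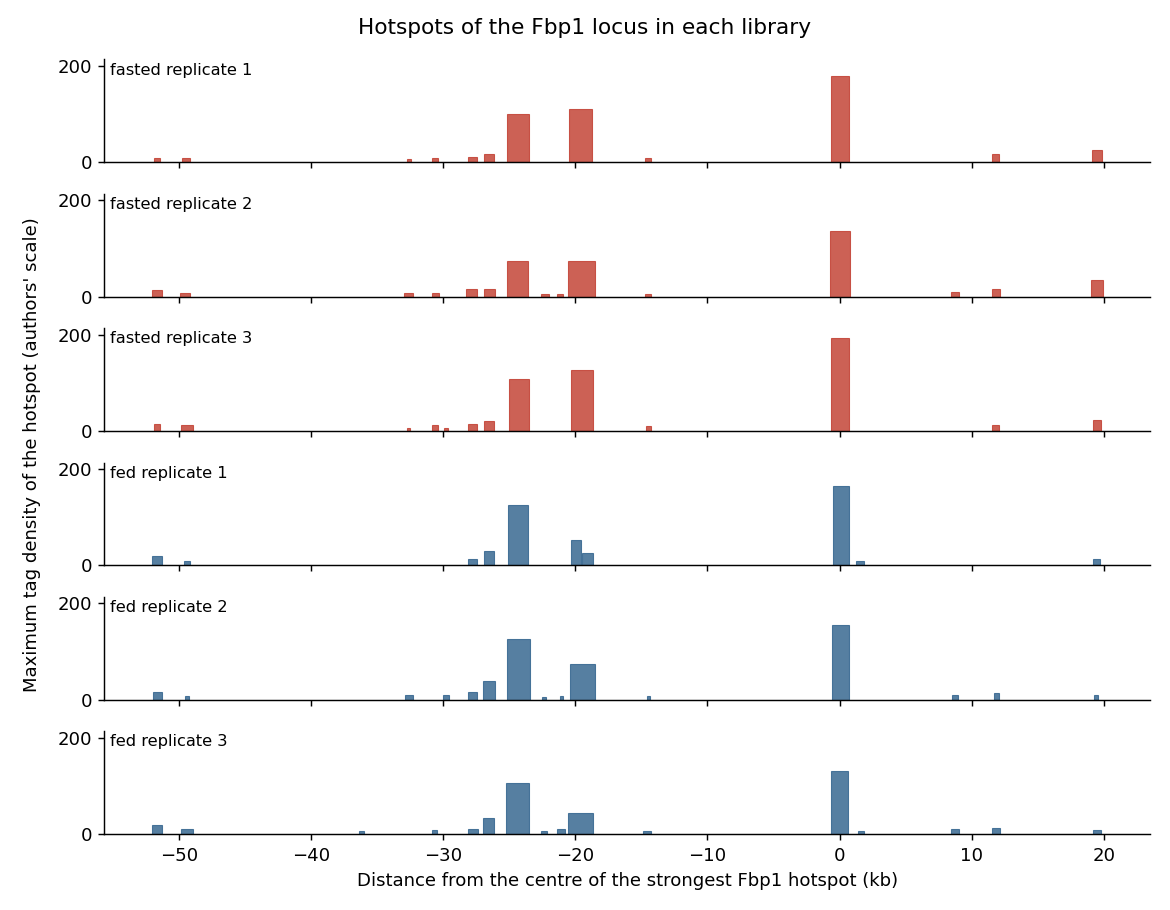
Hotspots of the Fbp1 locus in each library, drawn as distance in kb from the centre of the strongest hotspot (x axis) and maximum tag density (y axis), fasted in red and fed in blue. Site 6, left of the centre, stands at 74.4 to 126 in fasted and 44.9 to 75.3 in fed libraries, while the strong site just left of it is at 73.8 to 108 in fasted and 107 to 126 in fed libraries.

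**Figure D5:**
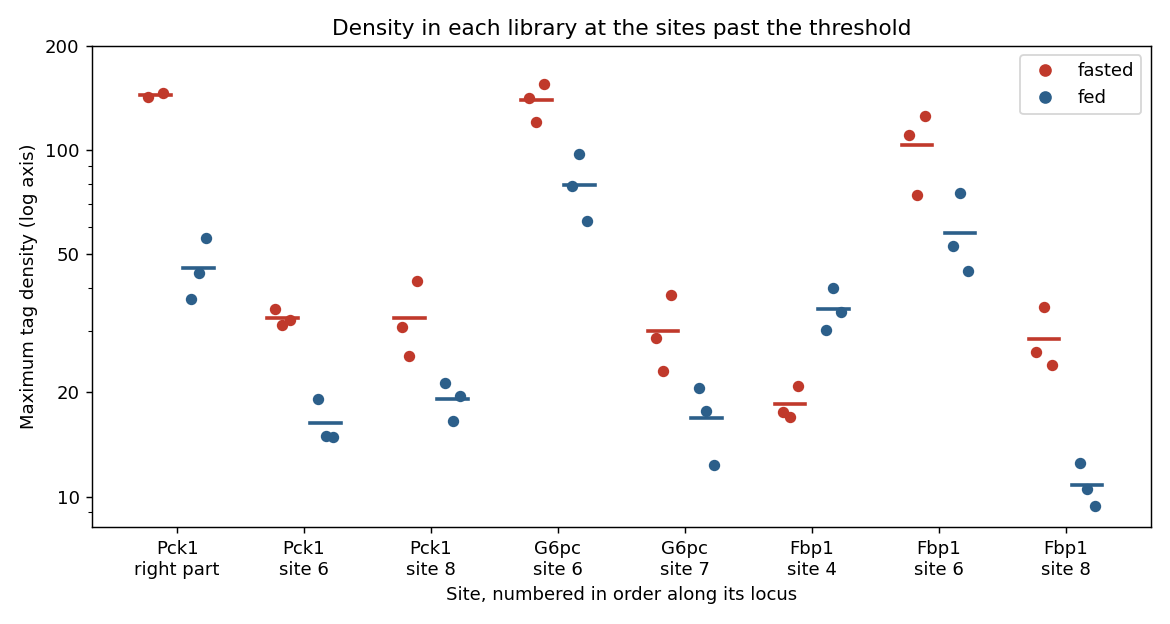
Maximum tag density (y axis, log scale) in each library at the right part of Pck1 site 7 and at the 7 sites past the threshold (x axis), with fasted libraries in red left of fed libraries in blue and bars at the group means. Fbp1 site 4 is the only one with all fasted points below the fed points, and at Fbp1 site 6 the lowest fasted point, 74.4, lies beside the highest fed point, 75.3.

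Apart from the 2 G6pc sites called in fed libraries only, the remaining sites were weak and unevenly called. Of the 46 regions 7 were called in 1 library only, and in 6 of these that library was fasted replicate 2, the deepest. Those 6 lie in 2 runs, 3 just right of the widest Pck1 region (densities 11.2 to 13.2) and 3 between G6pc sites 5 and 6 (12.6 to 14.2). Another 14 regions were called in 2 to 5 libraries, 3 at Pck1, 2 at G6pc (both called in fed libraries only) and 9 at Fbp1. By mean density, the strongest of the others was a Pck1 region (chr2:172934140-172934761) with densities of 16.5, 15.4 and 24.8 in fasted libraries and 17.7 in fed replicate 1. The weakest by mean density was an Fbp1 region (chr13:62986865-62987484) with 6.12 in fasted replicate 2 and 5.62 and 6.18 in fed replicates 2 and 3. Neither group's missing calls can be read as closed chromatin.

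The tested sites differed widely in height within each locus, and the weakest of Pck1, G6pc and Fbp1 stood above 51.5%, 49.5% and 14.0% of all tested regions in mean density. The strongest sites of Pck1, Fbp1 and G6pc stood above 98.8%, 98.5% and 97.8% of all tested regions in mean density. None of these 3 passed the test on its highest density, and 4 of the 6 sites that rose had mean densities between the 42.2 and 53.5 percentiles. Beyond the loci, the tested regions with the 6 centred log2 densities closest to those of each strongest site, by Euclidean distance over the 6 libraries, were chr13:35084772-35086982 for Pck1 (distance 0.131), chr4:116806246-116809485 for G6pc (0.138) and chr5:64734048-64738156 for Fbp1 (0.126). The first of these had means of 182 ± 15.5 in fasted and 158 ± 2.78 in fed livers (SD, n = 3 each), close to 179 ± 21.0 and 154 ± 5.98 at Pck1 site 7. A region, chr15:38361007-38362091, was among the 3 closest of both Pck1 and Fbp1, at distances of 0.157 and 0.176.

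Hotspots of the Pck1 window covered 16.9, 22.7 and 17.5 kb in fasted and 12.3, 12.8 and 16.4 kb in fed libraries, and the longest in each group came from its deepest library. At G6pc they covered 11.3, 18.9 and 10.6 kb in fasted and 11.1, 13 and 11.8 kb in fed libraries, and at Fbp1 9.85, 13.3 and 10.1 kb in fasted and 8.08, 10.5 and 12.9 kb in fed libraries. The groups overlapped at G6pc and Fbp1. At Pck1 they did not, and the part of depth in this was not tested.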

How the data were processed

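DNase I hotspots were analysed in 6 liver libraries, 3 fasted and 3 fed. Per the labels' protocols, DNase I was used on nuclei (40 U/ml), and released DNA of 100 to 500 bp was isolated. The submitters' processing notes name CASAVA 1.8 and build mm9; no aligner or hotspot caller is named in these sources. Hotspots are listed per library. Per the file headers, the authors deposited a maximum and an average tag density (a coverage signal) for each hotspot. Per the file headers, the authors also deposited a z-score (a score per hotspot) and a p-value; how they computed these is not stated, and neither was compared. The maxima were whole multiples of 1 step in each library (100% within 0.05 step), which gave relative depth if a step is 1 tag. No pair of replicates agreed within sampling noise (mean squared z of 2.18 to 5.77 in tag heights, where sampling alone gives 1), so none was counted as a duplicate.

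Hotspots on chromosomes 1 to 19 and X were merged at 1 bp overlap. The 37044 regions called in all 6 libraries were fitted in R 4.3.3 with limma 3.58.1 (moderated variances, trend allowed) on centred log2(maximum density + 1), adjusted by Benjamini-Hochberg over all of them, threshold 0.05. No count model was used, since heights of overlapping tags are not counts per region. The fit was also run on data simulated from its own variances with independent noise. Such data cannot show how uneven depth or the merging of hotspots affects the fit. Tables and plots used Python 3.11.15, pandas 2.3.3 and matplotlib 3.10.9. Sites were named in full if past the threshold or strongest in their locus; others were added after their values were seen. The sites and lists were chosen with earlier results of these data known. No mm9 annotation was used, so gene starts, the other genes of the pathway and cell type markers were not analysed here. Alternatives were the pseudocount, centring, density measure, filters, variance model, replicate block, depth, merging, list length, overlap, windows and each replicate left out. Libraries sharing a replicate number did not vary jointly around their group means (correlations -0.07, -0.03 and -0.17).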

Additional observations from a re-analysis of the deposited data

How the results depend on the processing

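Fits for 1 hotspot of each library and for the parts of Pck1 site 7 were chosen after seeing the data. Counts of sites higher in fasted livers ran from 4 (the upper 50% of regions by density or regions with 1 hotspot of each library, where 20 and 18 sites were tested) to 9 (relative depth as a covariate) over the settings that kept all libraries, against 6, and from 5 to 11 on leaving out each replicate. Over all tested regions, 1325 of 18522, 2665 of 32258 and 2984 of 37044 were higher in these settings, in the order named. The count of 5 came without fed replicate 3 (1999 of 37431 over all) and that of 11 without fasted replicate 2 (3237 of 37543). Counts of lower sites were 1 on leaving out each replicate, 2 with quantile normalization, 3 with uncalled regions given each library's lowest density and 2 with windows extended by 50 kb, against 1. Over all tested regions the lower counts were 2031 to 2773 on leaving out each replicate. They were 2791 of 37044, 3599 of 46917 and 2905 of 37044 in the other settings, in the order named. With the replicate block 6 were higher and 1 lower (2535 and 2539 of 37044 over all tested regions), and the numbers gave no sign of pairing. Sites called in all fasted and no fed libraries numbered 0, and became 1 when hotspots had to cover at least 50% of a region (1051 of all 75169 merged regions). They numbered 0 to 1 on leaving out each replicate (1017 to 2024 over all merged regions). Those called in fed only numbered 2 to 3 on leaving out each replicate (1327 to 2406 over all merged regions). Pck1 site 7 reversed with average density (log2 fold change -0.15, adjusted p = 0.454, limma, and 0.0513 to 0.454 over its alternatives), and the cause was not tested. The 0.0513 is that of its left part without fasted replicate 2. In that fit its right part had an adjusted p of 5.25e-07 (limma), which the range leaves out. Fbp1 site 7 passed with depth as a covariate (adjusted p = 0.0469, limma; up to 0.676 over its alternatives). Of 136 values of the 7 sites past the threshold, 134 kept direction and passed. Extending the windows left the fit itself unchanged, so those values repeat the reported ones. Settings whose filter dropped a site gave no value for it. With tags as the unit, the weakest tested site was 19 tags high, so counting error is large at weak sites and small at the strongest.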
